A study of Rattus norvegicus with 32 samples.

Results

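Lungs of 5 sham rats were compared with lungs of 3 control rats, 8 of the 32 samples of a study of rat lung after hemorrhage. The sham rats were male Sprague-Dawley rats of 280 to 300 g that received 2 arterial catheters under isoflurane, 1 of them brought out through the skin and the other joined to a telemetry device in the peritoneal cavity. They recovered for 7 to 10 days and were not bled. The control rats were of the same sex, strain and weight, carried no instruments and were not handled experimentally. Sham therefore differs from control in anaesthesia, surgery, indwelling catheters, the device and the recording sessions together, and these cannot be told apart here. The members were taken by their titles: sham replicates 1, 3, 4, 5 and 6 and control replicates 1, 2 and 3. A sixth sham library, replicate 2, was left out for its liver signal and is given as a check. In the same fit stood 22 lungs from instrumented rats that had 40% of their estimated blood volume withdrawn 1 to 72 h before sampling.

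Each lung RNA was hybridised together with pooled RNA of several organs of untreated rats on a spotted array of 13056 spots, and 12151 to 12895 spots carried a value on the 8 arrays. The values are log2 ratios of lung over pool, from which the array's median was subtracted (a centred log2 ratio). Spots of 1 gene were averaged. A ratio of 1 gene is comparable between arrays and not with the ratio of another gene. The hour of the day and the time at which sham and control lungs were taken are not settled by the labels. The labels do not number the animals, so a p-value here reflects the spread between samples, which may be technical, and the number of arrays limits the precision.

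Catheterisation injures a vessel wall and leaves foreign material in the bloodstream and, with the telemetry device, in the peritoneal cavity. Tissue injury calls out neutrophils and then macrophages through cytokines and chemokines, the liver answers interleukin-6 with acute phase proteins, and repair proceeds through transforming growth factor beta, collagen and the proteases that remodel it. The lung receives the whole cardiac output and holds a large pool of marginated leukocytes, so sham lungs are the usual reference against which the response to blood loss is read. The comparison of sham with control asks what instrumentation and recovery alone leave in the lung transcriptome.

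The tissue was checked first. The median centred log2 ratio of 14 lung genes (surfactant, club cell, type I pneumocyte and endothelial genes) was 1.14 to 1.75 on the 5 sham arrays, against 0.90 to 1.59 on the 3 control arrays. The median of 41 liver genes was -0.78 to -0.20 on the sham arrays, against -0.87 to -0.57 on the control arrays. All 8 arrays thus showed lung genes above and liver genes below the array median, which also sets the direction of the ratio, since the labels used here do not give the dyes. Sham replicate 2 went against its label. Its lung genes had a median of -0.55 and its liver genes a median of 2.60, and it correlated with the 8 arrays at only 0.0155 to 0.212.

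**Figure D1:**
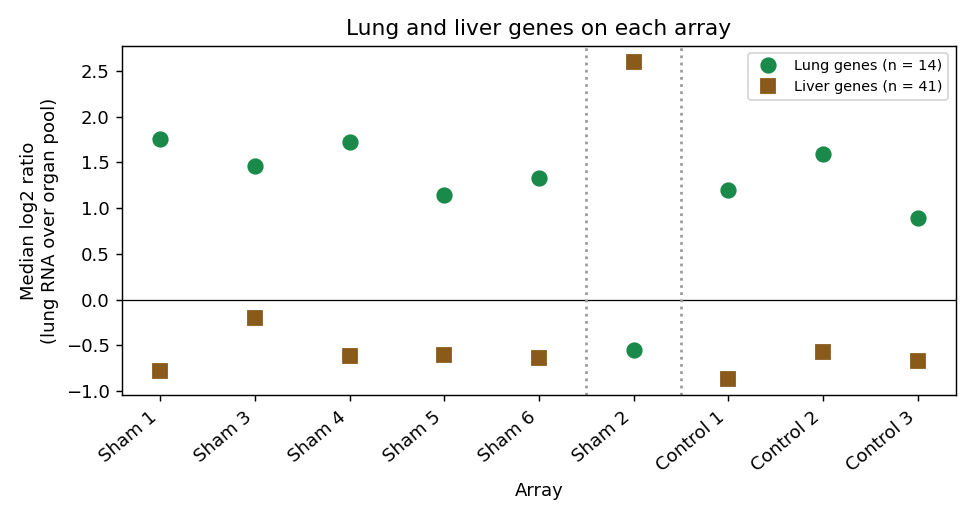
Median centred log2 ratio (lung RNA over organ pool) of 14 lung genes (circles) and 41 liver genes (squares) on each sham and control array. On sham replicate 2 the order is turned round, with liver genes at 2.60 and lung genes at -0.55, while on the other arrays the lung genes lie between 0.90 and 1.75.

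Over all features the 2 groups were about as alike as the arrays within a group. Pairs of sham arrays correlated at a median of 0.654 (0.627 to 0.738, 10 pairs), and sham arrays correlated with control arrays at a median of 0.623 (0.496 to 0.774, 15 pairs). The 3 pairs of control arrays had a median of 0.623 as well (0.511 to 0.630). These values are descriptions, since all arrays share the reference pool.

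No gene passed the test. With limma and Benjamini-Hochberg adjustment, 0 of 5993 features (0%) had an adjusted p under 0.05 between sham and control, and the smallest adjusted p was 0.415. That value belonged to an unnamed pair of spots with values on 4 sham and 2 control arrays. At an unadjusted p under 0.05, 211 features (3.52%) were higher in sham lungs and 71 (1.18%) were lower, 282 in all. Weighting arrays by their noise, an alternative in limma, called 4 features: Edn2, Prdx6, Tgfbr3 and the same unnamed pair.

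The precision of the comparison bounds what a lack of calls can mean. The median standard error of a difference was 0.319 log2 units and the median half-width of its 95% interval was 0.658. For 3680 features (61.4%) the whole interval lay within 1 log2 unit of 0, that is, within a factor of 2 in either direction.

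More features leaned toward higher values in sham lungs than toward lower ones, and that lean depended on 1 control array. Differences of more than 1 log2 unit were measured for 123 features above and 68 below 0. Overlap was assessed only for features with a value on all 8 arrays. Among those, 5 of the features above and 6 of those below had groups without overlap. Without control replicate 1 the count of features higher at an unadjusted p under 0.05 was 62 and the count lower was 56. Without control replicate 3 the counts were 358 and 56, and without control replicate 2 they were 299 and 82. Among 199 complete features higher in sham at that p, the lowest array was control replicate 1 for 153 (76.9%). It was control replicate 2 for 12 (6.03%) and control replicate 3 for 32 (16.1%). Choosing features higher in sham favours a control array as the lowest. Among all 5690 complete features the same 3 arrays were lowest for 21.1%, 5.2% and 13.7%. Control replicate 1 also had the lowest agreement of paired spots among the 8 arrays (r of 0.709, against 0.750 to 0.871 on the others) and 149 spots at or under a linear ratio of 0.05, against 27 to 79. Its part in these counts beyond leaving it out was not tested.

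**Figure D2:**
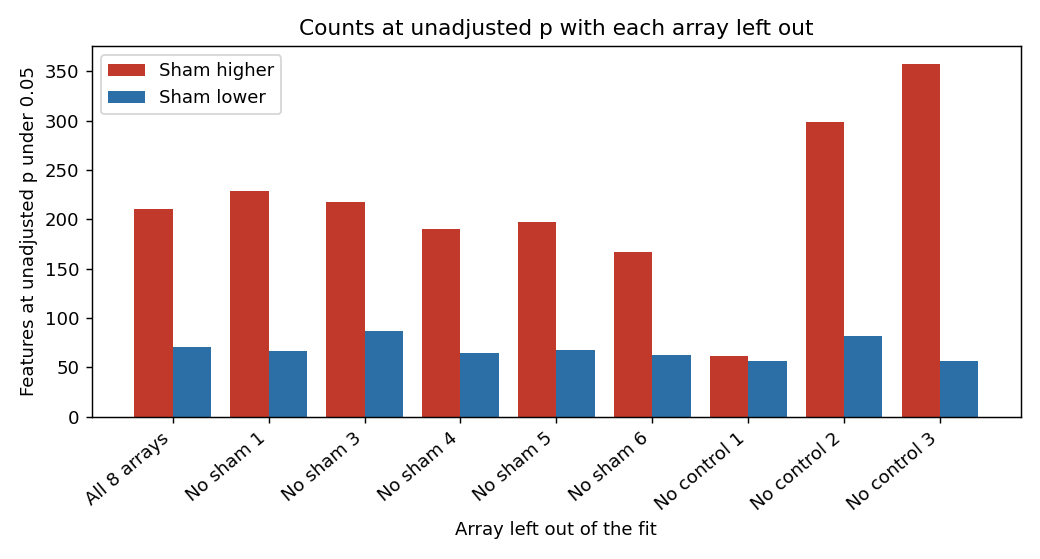
Number of features at an unadjusted p under 0.05 that were higher (red) or lower (blue) in sham than in control lungs, with all 8 arrays and with each array left out in turn. The count of higher features is 62 without control replicate 1 and 358 without control replicate 3, while the count of lower features stays between 56 and 87.

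A stricter view takes only features whose sham and control arrays did not overlap. Every sham array lay above every control array for 80 of 5690 complete features (1.41%), and every sham array lay below every control array for 89 (1.56%), so the 2 directions were nearly even. The named genes of this kind with the smallest unadjusted p, 12 in each direction, are described next. They were chosen by this contrast, so their differences describe the data and are not separate evidence.

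Among the 12 leading genes higher in sham lungs were a coreceptor for transforming growth factor beta, an antioxidant enzyme, a ubiquitin-like protein and a proteasome activator subunit. Their differences were 0.63 to 1.69 log2 units and their adjusted p values in limma were 0.516 to 0.934. All 26 of their spots had the same sign, and at 16 spots, which include all spots of 6 genes, the groups did not overlap.

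Tgfbr3, betaglycan, which presents transforming growth factor beta to its signalling receptors, led the list. Its centred log2 ratios were 0.72, 0.38, 0.81, 0.56 and 0.79 on the sham arrays, against -0.46, -0.45 and 0.04 on the control arrays. The lowest sham array stood clear of the highest control array. The difference was 0.94 ± 0.21 (SE), 1.92-fold, with an adjusted p of 0.516, and it stayed at 0.86 to 1.11 when any 1 array was left out.

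Prdx6, a peroxiredoxin abundant in lung that reduces phospholipid hydroperoxides and takes part in surfactant lipid turnover, had ratios of 2.24, 0.96, 0.62, 0.77 and 1.21 in sham lungs, against -0.20, -1.54 and 0.15 in control lungs. Sham replicate 1 was the highest and control replicate 2 the lowest, and the groups were apart at both spots. The difference was 1.69 ± 0.40 (SE), 3.23-fold, with an adjusted p of 0.516. Without control replicate 2 it was 1.19.

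Nedd8, the ubiquitin-like protein that activates cullin ubiquitin ligases, had ratios of 1.47, 1.26, 1.43, 0.91 and 1.12 in sham lungs, against 0.50, 0.50 and 0.10 in control lungs. Both groups were even, with an SD of 0.23 in each, and the difference was 0.87 ± 0.24 (SE). Psme2, a subunit of the proteasome activator PA28, averaged 0.38 ± 0.39 in sham and -0.24 ± 0.11 in control lungs (SD, n = 5 and 3). Its 2 lowest-lying sham arrays, at -0.01 and 0.21, were still above the highest control array at -0.18. Ptma, prothymosin alpha, a small nuclear protein of proliferating cells, averaged 1.29 ± 0.33 in sham and 0.40 ± 0.17 in control lungs (SD).

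Tmbim6, an inhibitor of cell death in the endoplasmic reticulum membrane, averaged 0.65 ± 0.41 in sham and -0.09 ± 0.31 in control lungs (SD). Tln2, a talin that links integrins to actin, averaged 0.27 ± 0.22 in sham and -0.60 ± 0.47 in control lungs. Its 2 spots each overlapped between groups, and only their mean did not. Spag4, a nuclear envelope protein first described in sperm, had the narrowest sham group of the 12, at 0.32 ± 0.10, against -0.42 ± 0.32 in control lungs.

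Esr2, estrogen receptor beta, showed how a single control array can widen a difference. Its ratios were -0.12, -0.12, 0.09, -0.16 and -0.37 in sham lungs, against -3.08, -0.38 and -1.28 in control lungs. The highest control array and the lowest sham array were almost level. The difference was 1.44 ± 0.43 (SE) with all arrays and 0.69 without control replicate 1. Capn8, a calpain of stomach mucosa, averaged -0.37 ± 0.36 in sham and -1.21 ± 0.46 in control lungs (SD), and none of its 4 spots was free of overlap. The remaining leading genes were Gip, an incretin hormone of the gut, with a difference of 0.86 ± 0.27 (SE), and Mep1b, a brush border metalloprotease, with 0.74 ± 0.25 (SE).

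**Figure D3:**
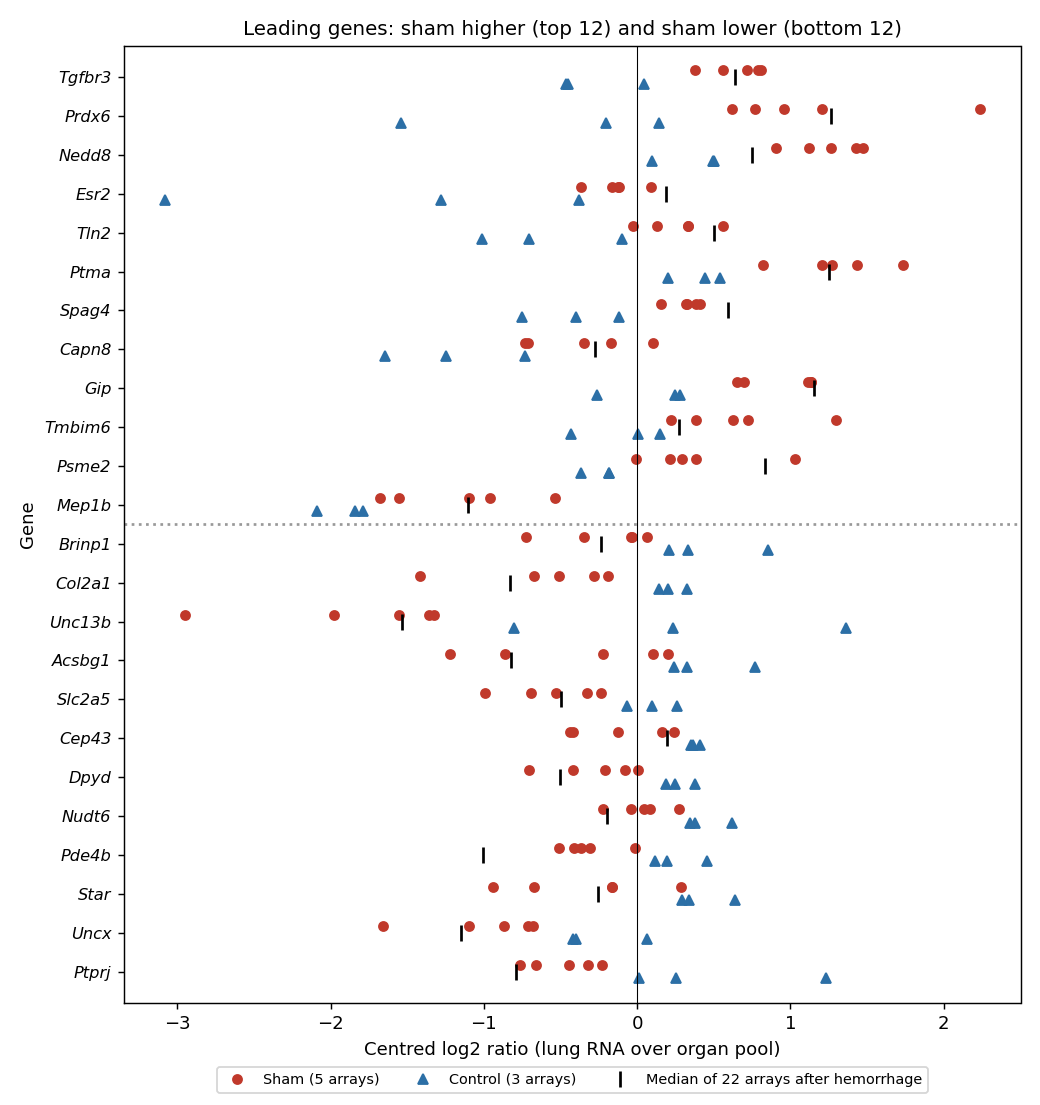
Centred log2 ratio of the 12 leading genes higher (upper part) and the 12 lower (lower part) in sham than in control lungs, chosen from genes whose groups do not overlap. Circles are the 5 sham arrays, triangles the 3 control arrays and the black bar is the median of 22 arrays after hemorrhage. Esr2 and Unc13b show the widest groups.

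The 12 leading genes lower in sham lungs included a cartilage collagen, a synaptic priming factor, a receptor phosphatase and several enzymes and transporters. Their differences ran from -2.10 to -0.42 log2 units with adjusted p values of 0.934 to 0.999 in limma. All 24 of their spots had the same sign, and at 19 the groups did not overlap, which include all spots of 8 genes. Without control replicate 1 the differences ran from -2.11 to -0.33.

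Unc13b, which primes vesicles for release, had ratios of -1.98, -1.33, -2.95, -1.36 and -1.55 in sham lungs, against 0.24, 1.36 and -0.80 in control lungs. Both groups were wide, and its spots overlapped when taken singly. The difference was -2.10 ± 0.78 (SE), the largest of the leading genes, with a 95% interval of -3.71 to -0.49. Col2a1, the collagen of cartilage, had ratios of -0.28, -0.67, -0.51, -0.19 and -1.42 in sham lungs, against 0.21, 0.14 and 0.33 in control lungs. Its control arrays lay close together and its sham arrays did not, and the difference was -0.84 ± 0.27 (SE).

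Ptprj, a receptor tyrosine phosphatase of endothelial and blood cells, had ratios of -0.23, -0.32, -0.77, -0.44 and -0.66 in sham lungs, against 0.26, 0.01 and 1.23 in control lungs. The difference of -0.98 ± 0.44 (SE) was -0.62 without control replicate 3, the highest array. Pde4b, the phosphodiesterase that breaks down cyclic AMP in leukocytes and airway, averaged -0.32 ± 0.19 in sham and 0.26 ± 0.18 in control lungs (SD), and its groups were apart at both spots. Brinp1, a neuronal regulator of the cell cycle, averaged -0.22 ± 0.32 in sham and 0.47 ± 0.34 in control lungs.

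Slc2a5, the fructose transporter GLUT5, averaged -0.56 ± 0.30 in sham and 0.10 ± 0.16 in control lungs (SD). Acsbg1, an acyl-CoA synthetase, had a wide sham group, at -0.40 ± 0.62, against 0.45 ± 0.29 in control lungs. Star, which carries cholesterol into mitochondria for steroid synthesis, averaged -0.33 ± 0.48 in sham and 0.42 ± 0.19 in control lungs. For Acsbg1 and Star the highest sham array and the lowest control array were nearly level, at 0.20 against 0.24 and at 0.29 against 0.29. The other members were Dpyd, which degrades pyrimidines, at -0.55 ± 0.23 (SE), Uncx, a homeobox gene, at -0.76 ± 0.33 (SE), Cep43, a centrosome protein, at -0.49 ± 0.19 (SE), and Nudt6, a hydrolase whose gene overlaps Fgf2 on the opposite strand, at -0.42 ± 0.18 (SE).

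Edn2, Hcn3 and Col3a1 had small unadjusted p values but groups that overlapped. Edn2, endothelin-2, a vasoconstrictor peptide, had ratios of 1.55, 0.33, 0.68, 1.22 and 1.06 in sham lungs, against 0.77, -1.74 and -0.60 in control lungs. Control replicate 1 lay inside the sham range. The control mean was -1.47 at 1 spot and 0.43 at the other, against sham means of 0.98 and 0.95. Among its values on the 8 arrays, 1 spot stood at or under a linear ratio of 0.05. The difference was 1.49 ± 0.41 (SE), its 2 spots gave 2.46 and 0.52, and it was 0.88 without control replicate 2 and 2.14 without control replicate 1. Down-weighting noisy arrays, which gave control replicate 2 a weight of 2.84 and control replicate 1 a weight of 0.58, put it at 2.09 ± 0.35 (SE) with an adjusted p of 0.00929. Prdx6 and Tgfbr3 were called in that fit as well, at 2.11 ± 0.36 and 0.97 ± 0.17 (SE).

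Hcn3, a hyperpolarisation-activated cation channel, had ratios of 1.09, 0.03, 0.01, -0.24 and 0.40 in sham lungs, against -2.61, -0.84 and -0.24 in control lungs, and its difference of 1.49 was 0.80 without control replicate 1. Col3a1, the fibrillar collagen laid down early in repair, had ratios of 0.46, -0.11, -0.27, -0.21 and 0.22 in sham lungs, against 0.29, 0.83 and 2.33 in control lungs. Control replicate 3 stood far above all other arrays. The difference was -1.13 ± 0.34 (SE) with it and -0.54 without it.

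Genes of inflammation lay on both sides of 0, more of them below it. Of 52 cytokine, chemokine and NF-kB genes tested, 20 were higher and 32 lower in sham lungs, with a median difference of -0.07. Of all features, 3156 were higher (52.7%) and 2837 lower, with a median of 0.02 and quartiles of -0.18 and 0.24. None of the 52 was called. At an unadjusted p under 0.05, 2 were higher and 1 lower, beside 3.52% and 1.18% of all features. For 31 of 52 the 95% interval lay within 1 log2 unit of 0, beside 61.4% of all features. The median of these genes on an array was -0.07 to 0.07 in sham lungs, against -0.08 to 0.15 in control lungs.

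Il6, the cytokine that drives the hepatic acute phase, had the smallest p of this group. Its ratios were -0.72, -0.83, -1.26, -0.84 and -1.75 in sham lungs, against -2.82, -1.96 and -1.42 in control lungs. Sham replicate 6 fell within the control range. The difference was 0.99 ± 0.36 (SE, adjusted p = 0.953 in limma), and 0.61 without control replicate 1. Ccl2, which recruits monocytes, had ratios of -0.30, 0.02, 0.17, -0.06 and -0.11 in sham lungs, against -0.75, -0.43 and -0.52 in control lungs. It alone of the 52 genes had groups without overlap, beside 1.41% of complete features with sham above and 1.56% with sham below. The difference was 0.51 ± 0.22 (SE).

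Cxcl2, a neutrophil chemokine, lay the other way, averaging -1.46 ± 0.56 in sham and -0.71 ± 0.43 in control lungs (SD), a difference of -0.75 ± 0.36 (SE) with overlap. Named for their roles rather than their values, Il1b and Cxcl1, early mediators of inflammation, differed by 0.01 (95% interval -0.51 to 0.53) and 0.10 (-0.43 to 0.63). For Tnf the difference was 0.39 with a wider interval of -0.70 to 1.48, which reaches past 1 log2 unit on the higher side, and the difference was 0.02 without control replicate 1. Nfkb1, a subunit of NF-kB, differed by -0.32 (-1.09 to 0.45), and by -0.02 without control replicate 3.

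**Figure D4:**
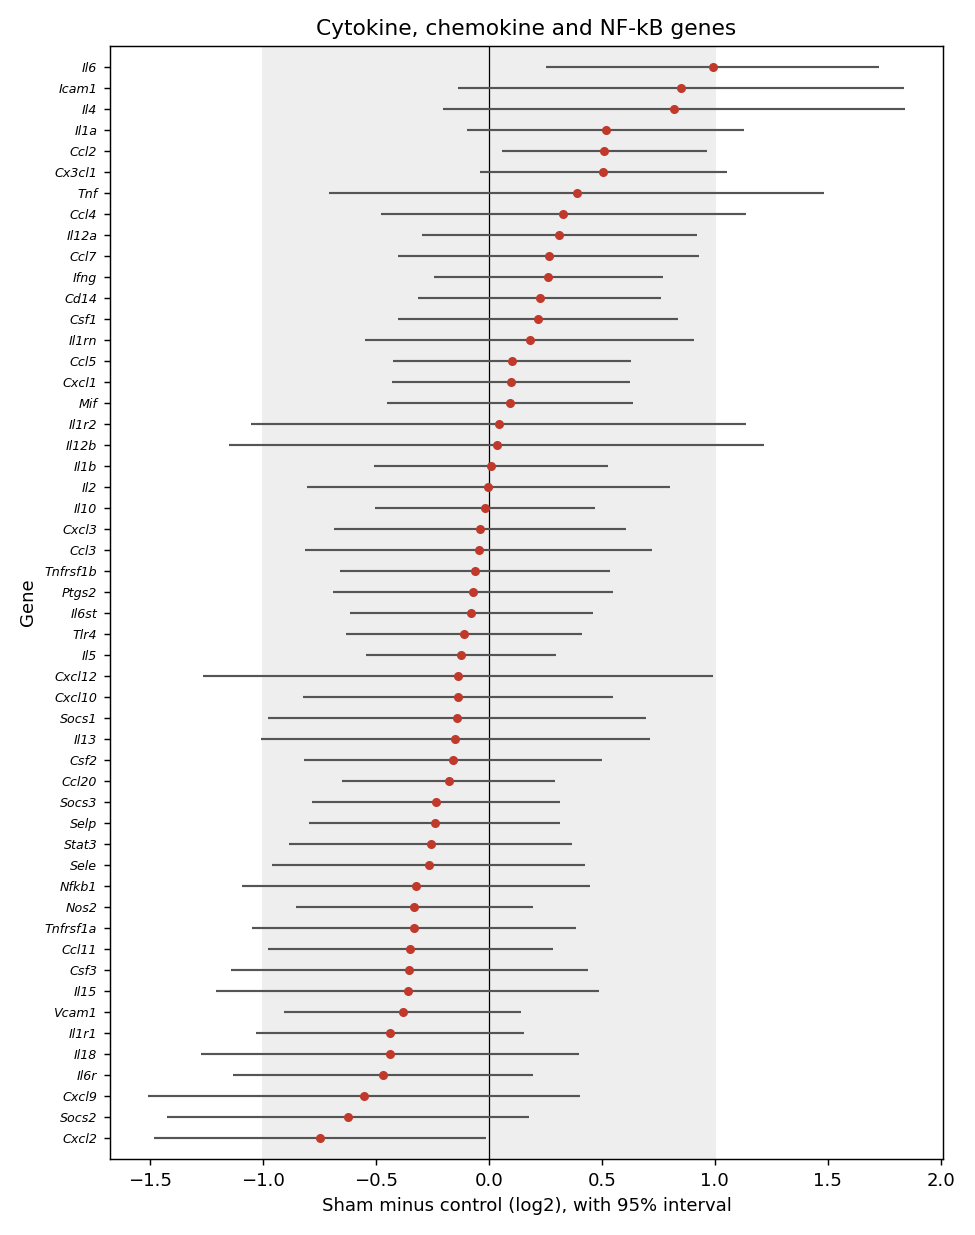
Difference between sham and control lungs (log2, points) with its 95% interval (lines) for 52 cytokine, chemokine and NF-kB genes. The shaded band marks 1 log2 unit to either side of 0, and 31 of 52 intervals lie inside it. Il6 and Ccl2 have intervals above 0 and Cxcl2 has one below 0.

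Leukocyte genes gave no common direction. In bulk lung RNA fewer cells of a type and less RNA per cell cannot be told apart. Of 13 neutrophil genes 7 were higher and 6 lower in sham lungs (median 0.01). Cybb, the catalytic subunit of the phagocyte NADPH oxidase, was lower on every sham array, at 0.62, 0.58, 0.31, -0.19 and 0.48, against 0.96, 0.82 and 1.13 in control lungs, a difference of -0.61 ± 0.29 (SE). Defa5, a defensin, averaged 0.40 ± 0.29 in sham and 0.76 ± 0.09 in control lungs (SD), also without overlap. Cybb and Defa5 were 2 of 12 complete neutrophil genes, beside 1.56% of all complete features with every sham array below control. S100a8, a calcium-binding protein of neutrophils, was at 0.44 ± 0.37 (SE), and at 0.19 without control replicate 3.

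The 15 macrophage genes divided into 7 higher and 8 lower (median -0.04). Mmp12, macrophage elastase, had ratios of -2.04, -1.27, -2.84, -2.04 and -1.39 in sham lungs, against 0.17, -1.28 and -0.40 in control lungs. Sham replicate 3 and control replicate 2 were level, and the other arrays were apart. The difference was -1.41 ± 0.49 (SE). Ctsd, a lysosomal protease, was higher by 0.61 ± 0.28 (SE), and by 0.37 without control replicate 1. Of 21 lymphocyte genes 15 were higher (median 0.11, and 0.04 without sham replicate 1), led by Cd5, a T cell surface receptor, at 0.43 ± 0.22 (SE), and none had an unadjusted p under 0.05. Mast cell genes were 6 higher and 7 lower, with Mcpt1, a chymase, at 0.57 ± 0.32 (SE), and at 0.30 without control replicate 1.

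Of 25 acute phase and plasma protein genes, 15 were higher in sham lungs, with a median of 0.18 that was 0.02 without control replicate 3. Only 1 had an unadjusted p under 0.05, on the higher side, beside 3.52% of all features. That gene was Agt, angiotensinogen, at 0.57 ± 0.26 (SE). Ttr, transthyretin, was higher by 0.64 ± 0.32 (SE), and by 0.27 without control replicate 3. Cp, ceruloplasmin, averaged -1.73 ± 0.88 in sham and -0.81 ± 0.97 in control lungs (SD). Its difference of -0.92 was -0.58 without control replicate 3, and its 2 sequences on the array gave -0.38 and -1.61. Of its spot values on the 8 arrays, 3 stood at or under a linear ratio of 0.05. Clotting and platelet genes were 10 higher and 13 lower (median -0.04), with coagulation factor F10 at -0.42 ± 0.34 (SE).

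Interferon-stimulated genes were 4 higher and 8 lower in sham lungs (median -0.03), and antigen presentation genes were 7 and 7. Irf1, a transcription factor induced by interferon gamma, had ratios of -0.65, -0.81, -0.86, -0.89 and -0.62 in sham lungs, against -1.18, -1.21 and -3.38 in control lungs. The sham arrays were tightly grouped, and control replicate 3 was far below the rest. The difference was 1.16 ± 0.57 (SE), and 0.43 without control replicate 3. Mx1, an antiviral GTPase, differed by -0.50 ± 0.40 (SE), and by -0.17 without sham replicate 5.

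Genes of repair were likewise mixed. The extracellular matrix and wound repair list had 14 of 33 members higher and 19 lower in sham lungs (median -0.06), and its 2 members with the smallest p, Tgfbr3 and Col3a1, lay in opposite directions. Timp1, an inhibitor of matrix metalloproteases, averaged -0.02 ± 0.31 in sham and -0.74 ± 1.47 in control lungs (SD). Its control values of -2.28, -0.61 and 0.66 spanned all sham values, and without control replicate 1 the difference of 0.73 was -0.04.

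Stress pathways were examined as lists. Immediate early genes were 13 higher and 19 lower of 32 (median -0.07), and for 27 of 32 the interval lay within 1 log2 unit of 0. Cebpd, a transcription factor induced by cytokines and glucocorticoids, was higher by 1.33 ± 0.48 (SE), but its control values were -3.87, -0.50 and -0.65, and without control replicate 1 the difference was 0.23. Egr1, an immediate early transcription factor, averaged -1.16 ± 0.46 in sham and -0.51 ± 0.62 in control lungs (SD). Fosl1, of the AP-1 family, differed by -0.45 ± 0.26 (SE).

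Glucocorticoid-induced genes were 11 higher and 8 lower (median 0.05), and circadian clock genes 8 higher and 7 lower (median 0.00). Csnk1e, a kinase that phosphorylates PER proteins, was higher by 0.65 ± 0.24 (SE), and by 0.35 without control replicate 1. The 2 Csnk1e sequences on the array were unlike, with differences of 0.0999 and 1.1954. Clock, a core clock transcription factor, differed by -0.30 ± 0.21 (SE).

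Of 29 catecholamine and sympathetic genes, 20 were higher in sham lungs, with a median of 0.18 that was 0.03 without control replicate 1, near the 0.02 of all features. An unadjusted p under 0.05 was reached by 3 of them, all higher, beside 3.52% of all features. Those 3 were Grk3, a kinase that desensitises beta-adrenergic receptors, at 0.65 ± 0.30 (SE), Arrb1, beta-arrestin-1, which binds the receptors so marked, at 0.54 ± 0.25, and Npy, the cotransmitter neuropeptide Y, at 0.48 ± 0.22. Npy had ratios of 0.81, 0.29, 0.80, 0.66 and 0.76 in sham lungs, against 0.09, 0.40 and 0.08 in control lungs. Only sham replicate 3 lay within the control range. Leaving out control replicate 1 gave 0.47, 0.46 and 0.43 for the 3 genes in that order.

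Vasoactive mediators and receptors were 20 higher and 32 lower of 52 (median -0.06). Edn2 and Agt were higher at an unadjusted p under 0.05, beside 3.52% of all features. Oxidative stress defence had 26 of 39 genes higher, beside 52.7% of all features, with a median of 0.16 that was 0.05 without control replicate 1. Beside Prdx6 this held Prdx4, a peroxiredoxin of the endoplasmic reticulum, at 1.14 ± 0.49 (SE), which was 0.41 without control replicate 1, and Gpx4, a lipid peroxide reductase, at 0.43 ± 0.28, which was 0.08 without control replicate 3. Gstt1, a glutathione transferase, was at -0.54 ± 0.28.

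Heat shock and chaperone genes were 12 higher and 15 lower of 27 (median -0.12, and 0.0082 without control replicate 3). At an unadjusted p under 0.05, 2 were higher and 1 lower, beside 3.52% and 1.18% of all features. Dnaja1, a cochaperone of HSP70, averaged -0.19 ± 0.54 in sham and 0.59 ± 0.44 in control lungs (SD) without overlap. It was 1 of 26 complete members, beside 1.56% of all complete features with sham below. Dnaja2, its close relative, was higher by 0.73 ± 0.35 (SE), and Hspb8, a small heat shock protein, by 0.56 ± 0.27, which was 0.16 without control replicate 1. Hypoxia-responsive and glycolytic genes were 23 higher and 14 lower (median 0.07), none at an unadjusted p under 0.05. Slc2a3, the glucose transporter GLUT3, averaged 0.75 ± 0.24 in sham and 0.32 ± 0.07 in control lungs (SD), without overlap. Of 37 complete members, 1 had every sham array above control and 1 every sham array below. The shares of all complete features were 1.41% and 1.56%. Gapdh differed by 0.41 ± 0.24 (SE) and Ldhb, a lactate dehydrogenase subunit, by 0.67 ± 0.41, which was 0.21 without control replicate 1.

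Epithelial genes of the lung were more often higher than lower in sham lungs, beside 52.7% higher among all features, and none was called. Of 17 surfactant and type II pneumocyte genes 12 were higher (median 0.17), and the median was -0.02 without control replicate 1. Of 6 type I pneumocyte genes 4 were higher, with a median of 0.27 that was 0.10 without sham replicate 1. Of 14 club, ciliated and mucous cell genes 10 were higher, with a median of 0.17 that was 0.12 at the lowest when 1 array was left out. Sftpb, surfactant protein B, had ratios of 3.89, 2.95, 2.99, 2.50 and 3.03 in sham lungs, against 2.92, 2.39 and 1.76 in control lungs. The groups overlapped through sham replicate 5 and control replicate 1, and the difference was 0.72 ± 0.32 (SE), and 0.42 without control replicate 3. Sftpc, surfactant protein C, differed by 0.35 ± 0.49 (SE), and by 0.04 without sham replicate 4. Sftpa1, surfactant protein A, differed by 0.37 ± 0.39 (SE), and by 0.13 without control replicate 1. Napsa, another marker of type II cells, lay the other way, at -0.33 ± 0.28 (SE).

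Ager, a receptor concentrated on type I pneumocytes, had ratios of 2.38, 2.36, 2.28, 1.06 and 2.11 in sham lungs, against 1.31, 1.72 and 0.77 in control lungs. All sham arrays except replicate 5 lay above the controls, and the difference was 0.77 ± 0.31 (SE). Hopx, a homeodomain protein of the same cells, was higher by 0.82 ± 0.39 (SE), Pdpn, podoplanin, by 0.34 ± 0.28, and Akap5, a kinase anchor, differed by -0.17 ± 0.23. Fmo2, the pulmonary flavin monooxygenase, was the 1 airway gene of 14 without overlap, beside 1.41% of all complete features with sham above. Its ratios were 2.24, 2.77, 2.13, 2.15 and 2.17 in sham lungs, against 0.77, 1.81 and 1.43 in control lungs. The difference was 0.96 ± 0.39 (SE), and 0.67 without control replicate 1. Scgb1a1, the club cell secretory protein, differed by 0.61 ± 0.54 (SE), and by 0.02 without control replicate 3. Cyp1b1 of the airway list lay lower, at -0.60 ± 0.39 (SE), and at -0.30 without control replicate 3. The club cell markers Cyp4b1 and Cyp2f4 were also lower, at -0.24 ± 0.30 and -0.11 ± 0.31 (SE).

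Endothelial genes were 6 higher and 8 lower of 14 in sham lungs (median -0.13), none at an unadjusted p under 0.05, and the median was 0.13 without control replicate 3. Ramp2, which turns the receptor Calcrl into an adrenomedullin receptor, differed by 0.63 ± 0.46 (SE) and Calcrl itself by -0.34 ± 0.33, which was -0.05 without control replicate 3. Ace, angiotensin-converting enzyme of the capillary endothelium, differed by -0.55 ± 0.41 (SE), and by -0.36 without control replicate 1, and Kdr, the main receptor for vascular endothelial growth factor, by -0.29 ± 0.24. Smooth muscle genes were 4 higher and 7 lower (median -0.04), with Tagln, an actin-binding protein, at -0.39 ± 0.29 (SE), and at -0.12 without control replicate 3.

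Sodium, water and chloride transport had 16 of 22 genes higher (median 0.22), which was 0.06 without control replicate 1. Beside Hcn3 it held Aqp3, an aquaglyceroporin, whose difference of 1.43 rested on 1 array. Aqp3 had ratios of -1.96, -1.87, -2.45, -1.97 and -1.70 in sham lungs, against -6.57, -1.82 and -1.87 in control lungs. The value on control replicate 1 is near the lowest ratio the files hold, and without that array the difference was -0.15. Fxyd2, a modulator of the sodium pump, differed by 0.48 ± 0.28 (SE).

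The cytoplasmic ribosomal proteins were the list most often higher in sham lungs, with 42 of 48 genes above 0, a median of 0.21 and none at an unadjusted p under 0.05. Their median on an array was 0.74, 0.64, 1.35, 0.45 and 0.57 in sham lungs, against 0.58, 0.65 and 0.44 in control lungs. Sham replicate 4 stood above all others, and sham replicate 1 was also above every control array. Sham replicates 3, 5 and 6 lay within the control range. The list's median difference was 0.03 with array weights and 0.04 without sham replicate 4. Rpl10a differed by 0.75 ± 0.41 (SE), Rpl32 by 0.54 ± 0.31, Rps14 by 0.50 ± 0.34 and Rpl26, on the other side, by -0.76 ± 0.42. Without control replicate 3 Rps14 was at 0.12 and Rpl26 at -0.28.

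Mitochondrial respiration genes were 33 higher and 12 lower of 45 (median 0.17, and 0.08 without control replicate 3), and on sham replicate 4 their median was 0.06, against -0.37 to -0.08 on the other sham arrays and -0.47 to -0.21 on the control arrays. Idh3g, a subunit of isocitrate dehydrogenase, was higher by 0.93 ± 0.38 (SE), and by 0.21 without control replicate 1. Cox4i1, a subunit of cytochrome oxidase, was higher by 0.70 ± 0.35, and by 0.39 without the same array. Cell cycle genes were 12 higher and 16 lower (median -0.05), with Mcm6, a replicative helicase subunit, at 0.87 ± 0.43 (SE) and Aurkb, a mitotic kinase, at -0.73 ± 0.36. Without control replicate 1 Mcm6 was at 0.06, and without control replicate 3 Aurkb was at -0.43.

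Apoptosis genes were 13 higher and 17 lower of 30 (median -0.08). At an unadjusted p under 0.05, 1 was higher and 1 lower, beside 3.52% and 1.18% of all features. Both of these genes are survival factors of the BCL2 family. Bcl2a1 had ratios of 0.81, 0.37, 0.33, 0.15 and 0.95 in sham lungs, against 1.00, 0.69 and 2.27 in control lungs, a difference of -0.80 ± 0.35 (SE) that was -0.32 without control replicate 3. Mcl1 differed by 0.48 ± 0.24 (SE).

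Markers of other organs were read beside these groups. Liver genes were 27 higher and 14 lower of 41 (median 0.13, and 0.07 without control replicate 1). Kidney, gut and spleen genes were 17 higher and 8 lower of 25 (median 0.11). At an unadjusted p under 0.05, 4 of these 25 were higher and 0 lower, beside 3.52% and 1.18% of all features. Of 24 complete members, 3 had every sham array above control, beside 1.41% of all complete features. Heart and skeletal muscle genes were 17 higher and 10 lower of 27 (median 0.11). Adipose genes were 8 higher and 5 lower, and red cell genes 7 higher and 2 lower. Acta1, skeletal actin, was higher on every sham array, at -2.95, -2.94, -2.47, -2.90 and -2.41, against -3.85, -3.40 and -3.51 in control lungs, a difference of 0.85 ± 0.29 (SE). Its ratios were low in both groups, and 3 of its spot values on the 8 arrays stood at or under a linear ratio of 0.05. Acta1 was the 1 of 26 complete muscle genes with every sham array above control, beside 1.41% of all complete features. Adipoq, the adipocyte hormone adiponectin, differed by -0.60 ± 0.38 (SE), and by -0.26 without control replicate 3.

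Several differences among organ markers depended on control replicate 1, while Acta1 was 0.72, Gip 0.94 and Mep1b 0.77 without it. Umod, a kidney protein, had values of -2.27, -0.83, -1.28, -0.28 and -0.60 in sham lungs, against -6.57, -0.79 and -1.52 in control lungs, and its difference of 1.91 was 0.10 without that array. Cps1 and Arg1, liver enzymes of the urea cycle, were higher by 1.39 ± 0.51 and 0.59 ± 0.23 (SE), and by 0.36 and 0.28 without it. The part of tissue mixture in the results was not tested.

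**Figure D5:**
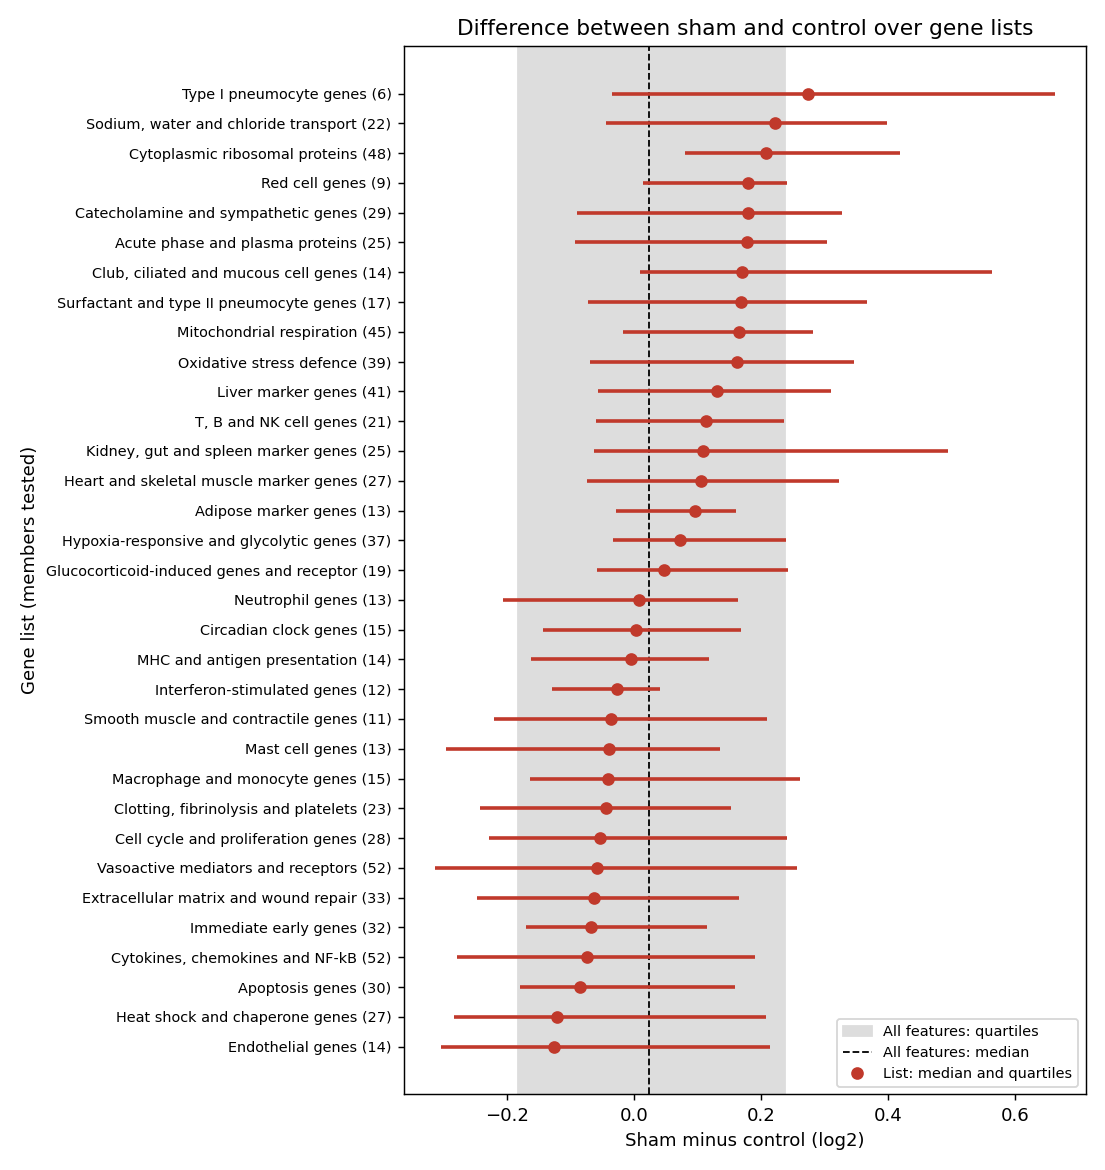
Median difference between sham and control lungs (points) with quartiles (lines) for the genes tested in each of 33 lists, with the median and quartiles of all 5993 features as dashed line and grey band. All list medians lie between -0.13 and 0.27 log2 units, and those of the cytokine, neutrophil and interferon lists lie between -0.07 and 0.01.

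Lungs of bled rats, which carried the same instruments, offered a further view of the leading genes. The comparison of bled with control lungs uses the same 3 control arrays as that of sham with control. The leading genes were also chosen with those 3 arrays to 1 side, which favours bled values beyond them. The share of all features with such values was not counted. The values are therefore given side by side and nothing is read from their likeness. The median of the 22 bled arrays lay beyond all 3 control arrays, on the sham side, for 12 of 12 leading genes higher in sham and for 12 of 12 lower. It lay within the sham range for 8 and 10 of them. Tgfbr3 had a bled median of 0.64, against -0.46 to 0.04 in control lungs, and its mean was 0.50 at 1 h, 1.08 at 3 h, 0.82 at 6 h, 0.42 at 16 h, 0.74 at 24 h, 0.30 at 48 h and -0.19 at 72 h. The last of these times was within the control range.

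For Prdx6 all 22 bled arrays lay above the highest control array, with a median of 1.27, against 1.16 as the sham mean and -0.53 as the control mean. Psme2 also had 22 of 22 bled arrays above control, and for Col2a1, Acsbg1, Dpyd, Nudt6 and Pde4b 22 of 22 lay below. Pde4b had a bled median of -1.0, below every sham array. Edn2 was not chosen with all control arrays to 1 side, so its values cannot be set against those of the leading genes. Its bled median was 0.25, and 3 of 22 bled arrays lay above its highest control array, at 0.77. For Il6 the bled median was -1.0 and 16 of 22 arrays were above control, while for Ccl2 it was -0.37 and 15 of 22.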

How the data were processed

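Lung RNA and an organ pool were hybridised on 2-colour spotted arrays, per the labels' protocols, after extraction with TRI Reagent. The deposited values are log2 ratios made by the authors, with dyes, scanner and normalization not given in the sources used here, so a shift of all genes between arrays may have been removed. Each array's median was subtracted, and spots were averaged by gene symbol (10652 spots with 1 symbol, 5022 genes), by accession or as neighbouring pairs (1201 unnamed features). Symbols came from the platform annotation. Of 6223 features, 5993 had values on at least 2 arrays of each group. The 30 arrays of 9 groups were fitted with limma 3.58.1 in R 4.3.3 (lmFit, eBayes, two-sided, statmod 1.5.0), with adjusted p from Benjamini-Hochberg over 5993 features, threshold 0.05. The calculation was tested on simulated data.

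Members, lists and tests were chosen with earlier results of these data known. Named genes were the 12 leading genes in each direction without overlap, the 3 members of each list with the smallest p and the 2 with the highest ratios, and Edn2, Col3a1, Hcn3 and Tgfbr3; the text gives a part. Tnf, Il1b and Cxcl1 were added for their roles, and Napsa, Cyp2f4 and Cyp4b1 as markers of lung cells. List counts stand beside those of all features, and no list test was made. Alternatives were other array sets, no centring, quantile normalization, missing-value and floor filters, averaging by accession, array weights, the replicate block and leaving out each array. Not filtering on missing values was added after seeing the data. Sham replicate 2 and 16 h replicate 3 were left out for their liver signal.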

Additional observations from a re-analysis of the deposited data

Results flagged for a closer look

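Among 98 genes checked in sham lungs, 8 had an array that stood apart from the other sham arrays by its gap relative to the group's range, and chance flags about 1 in 20 groups. Sham replicate 4 was that array for 5 of them: Idh3g at -0.30, Cox4i1 at 0.79, B2m (the light chain of MHC class I) at 2.65, Txn1 (thioredoxin) at 1.87 and Fosl1 at -0.41. It was the highest sham array for the first 4 genes and the lowest for Fosl1, and it also had the highest ribosomal protein median, 1.35. Other arrays stood apart for 1 gene each: sham replicate 1 for Defa5 at -0.11, sham replicate 5 for Ager at 1.06 and sham replicate 3 for Fmo2 at 2.77. Sham replicate 2, outside the 8 arrays compared in the report, had a median of 2.60 for the liver genes, above -0.57, the highest of the control arrays.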

How the results depend on the processing

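The count of features called was 0 under every alternative except array weights, which called 4. The count higher in sham at an unadjusted p under 0.05 (211) was 124 with the 8 arrays alone and 115 with the replicate block, and ranged from 62 to 358 when 1 array was left out; the count lower (71) was 132 with array weights and 56 to 87 with 1 array left out. With the replicate block 0 features were called. Deviations from the group means correlated between same-numbered sham and control arrays at 0.124 (replicate 1) and 0.0112 (replicate 3). Differently numbered arrays were not set beside them, so these values cannot settle whether the numbers pair the samples.

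With sham replicate 2 included, in 31 or all 32 arrays, Sftpb was -0.19, Sftpc -0.78, Sftpa1 -0.40, Scgb1a1 -0.47 and Cp 0.0011, all with the opposite sign. Aqp3 was -0.15 with near-floor ratios missing, and -0.15 to 2.23 with 1 array left out. Il1b, near 0, was -0.028 after quantile normalization, -0.16 with the replicate block and -0.15 to 0.14 with 1 array left out, Cxcl1 -0.10 to 0.27 and Timp1 -0.042 to 1.42. The causes were not tested. Of the other results for 98 of the named genes, 1062 kept their direction and side of the threshold, and 777 did so with 1 array left out. With array weights 3 passed it. Of list medians, 348 and 252 moved by less than the spread between arrays, and 15 and 12 by more. Precision is limited by 3 control arrays.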
